A study of Mus musculus with 24 samples.

Results

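The levels of 6 genes used as markers of antibody-secreting plasma cells were followed in CD11b+ cells. The RNA came from mouse spleen and bone marrow, and the genes were Jchain, Tnfrsf17, Prdm1, Xbp1, Mzb1 and Sdc1. They are 6 of the 32451 genes or transcripts on the array, 20659 of which carried a RefSeq symbol. The 6 were chosen by their log2 levels in STAT6-KO bone marrow set against those of the other genotypes, so that contrast is described here with no test. Each gene had 1 probe, and the probe of Mzb1 was printed in 10 spots per array. Within an array the log2 values of these 10 spots had a standard deviation (SD) of 0.02 to 0.11. Values are log2 signals minus the 75th percentile of the same array, so that a level of 0 is a signal equal to that percentile. Levels of different genes come from different probes and were not set against each other.

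RNA of CD11b+ cells was measured on 24 arrays, from 3 genotypes, in control mice and 1, 2 and 4 weeks after experimental myocardial infarction (MI). The genotypes were wild type (WT), HDC-KO, which lacks histidine decarboxylase, the enzyme that makes histamine, and STAT6-KO, which lacks the transcription factor that interleukin-4 and interleukin-13 activate. All mice were males on the Balb/C background and 10 weeks old, and each condition was 1 array of cells pooled from 5 mice. The 22 complete arrays were used, and the HDC-KO spleen control and the STAT6-KO bone marrow MI 1 week array are not analysed here. With 1 pool per condition there was no replicate of any single condition. Tests therefore took the 11 arrays of a tissue together, with genotype and time as additive terms, and their p-values measure the spread of pools around those 2 terms. The arrays carried 6 scan dates, and a scan date held a single genotype and tissue with all 4 time points. Genotype within a tissue, and tissue within a genotype, thus cannot be told apart from scan date. The slide of an array and its place there were not read, so genotype and time could not be separated from them. In Hdc the labels held: HDC-KO arrays lay at 1.67 to 1.93 in spleen and 2.32 to 2.78 in bone marrow, and all other arrays at 4.12 or higher. Stat6 was at 1.76 to 2.34 in STAT6-KO bone marrow against 2.65 or higher in the other genotypes, but at 1.94 to 2.44 in STAT6-KO spleen against 2.24 to 2.92, which overlap. Where the Stat6 probe lies relative to the deleted part of the gene is not given in the sources used here.

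A B cell becomes a plasma cell when Blimp-1, the product of Prdm1, shuts down B cell genes and the factor XBP1 enlarges the secretory pathway. The cell then exports antibody, and the J chain encoded by Jchain joins the units of IgM and IgA. Tnfrsf17 encodes BCMA, a receptor that keeps plasma cells alive in the bone marrow, Mzb1 encodes a chaperone of the endoplasmic reticulum (ER) that is also found in marginal zone B cells, and Sdc1 encodes CD138, the surface proteoglycan by which plasma cells are usually recognised. Prdm1 and Xbp1 are also used by myeloid cells and T cells, and Sdc1 is also found on B cell precursors.

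Marker genes of both the sorted population and lymphocytes were detected in the RNA. Itgam, which encodes CD11b, was well above background on all 22 arrays, at 3.52 to 4.83 in spleen and 5.10 to 5.85 in bone marrow. All 17 genes of the myeloid list were well above background on each array of 5 of the 6 combinations of tissue and genotype, and 16 of 17 in HDC-KO bone marrow. The B cell markers Ms4a1 and Cd79a were also well above background on every array, as were Cd3e of T cells and Siglech of plasmacytoid dendritic cells. On an array 70.4% to 79.8% of all probes were well above background, so this alone is a weak sign of a cell type. In these bulk samples fewer cells of a type and less RNA per cell cannot be told apart.

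The control regions of the 3 genes whose levels set STAT6-KO bone marrow apart are shown first, as the 250 bases before the annotated start (RefSeq, GRCm38.p6, 5′ to 3′ towards the gene, capitals marking a match to any motif searched).
Jchain, chr5:88527898-88528147, minus strand: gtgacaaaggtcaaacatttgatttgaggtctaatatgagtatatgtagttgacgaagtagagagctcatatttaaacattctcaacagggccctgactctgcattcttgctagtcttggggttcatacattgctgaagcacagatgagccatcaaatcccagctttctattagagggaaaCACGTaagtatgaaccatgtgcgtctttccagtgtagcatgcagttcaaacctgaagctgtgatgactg
Tnfrsf17, chr16:11313559-11313808, plus strand: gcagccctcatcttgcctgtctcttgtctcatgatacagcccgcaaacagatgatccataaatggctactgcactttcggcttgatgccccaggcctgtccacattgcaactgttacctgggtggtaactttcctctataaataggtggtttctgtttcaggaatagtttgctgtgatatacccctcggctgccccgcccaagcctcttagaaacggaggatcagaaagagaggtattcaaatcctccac
Prdm1, chr10:44458749-44458998, minus strand: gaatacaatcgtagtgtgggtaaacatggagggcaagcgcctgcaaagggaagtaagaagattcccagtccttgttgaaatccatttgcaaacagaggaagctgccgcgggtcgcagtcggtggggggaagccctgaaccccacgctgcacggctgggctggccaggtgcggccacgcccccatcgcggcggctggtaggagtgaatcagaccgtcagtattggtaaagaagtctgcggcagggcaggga
Of the 6 genes, 5 had a promoter in the RefSeq table. They were searched on both strands for the spacing that STAT6 prefers, TTCNNNNGAA, for the spacing of other STAT proteins, TTCNNNGAA, for ACGTG, the core of sites for XBP1, and for the octamer ATTTGCAT of antibody gene promoters. The motifs can overlap each other. Among all 32851 RefSeq promoter windows of this length, 5.85%, 7.02%, 16.6% and 1.6% held them, in that order. In the 5 windows the only match was ACGTG in Jchain, on the opposite strand as CACGT, which starts 69 bases before the gene. The other 4 windows hold none of these letters, which says nothing of sites elsewhere.

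In STAT6-KO bone marrow 3 of the 6 genes stood above all arrays of the other genotypes: Jchain, Tnfrsf17 and Prdm1. Over all genes measured, 6.57% were higher in STAT6-KO bone marrow with no overlap of arrays, and since this contrast chose the genes nothing is read from the count. The other 3, Xbp1, Mzb1 and Sdc1, overlapped. The fitted differences from the mean of WT and HDC-KO were 2.55 for Jchain (5.84-fold), 1.48 for Tnfrsf17 (2.79-fold) and 1.26 for Prdm1 (2.40-fold), and 0.01 for Sdc1, -0.06 for Xbp1 and -0.43 for Mzb1. Their median was 0.64, against 0.08 over all genes.

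Jchain was at 0.18 in the WT control, 0.52 at MI 1 week, 0.73 at MI 2 weeks and 1.01 at MI 4 weeks. In HDC-KO bone marrow the same time points gave -0.30, 2.41, 1.56 and 1.80. STAT6-KO bone marrow was at 4.01 in the control, 3.35 at MI 2 weeks and 2.77 at MI 4 weeks. The lowest STAT6-KO array lay above the highest of the others, which was HDC-KO at MI 1 week. The gap to WT was widest in the controls, at 3.83, and was 2.62 and 1.76 at MI 2 and 4 weeks.

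Tnfrsf17 was at -5.43, -4.13, -4.20 and -4.37 in WT bone marrow, from control to MI 4 weeks. HDC-KO bone marrow was at -5.47, -3.97, -5.06 and -4.49. STAT6-KO bone marrow was at -2.98 in the control, -3.53 at MI 2 weeks and -3.55 at MI 4 weeks. The groups did not overlap, though the nearest arrays, HDC-KO at MI 1 week and STAT6-KO at MI 4 weeks, were close to each other. All 11 arrays were well above background for this gene, but it was dim in bone marrow. Its signals there were 34 to 88 in WT and HDC-KO and 116 to 175 in STAT6-KO.

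Prdm1, which codes for the factor that drives the plasma cell programme, was the most even of the 3. WT bone marrow was at -1.89, -2.15, -2.12 and -2.14, and HDC-KO at -1.62, -1.91, -1.67 and -1.72. STAT6-KO bone marrow was at -0.44 in the control, -0.46 at MI 2 weeks and -0.89 at MI 4 weeks. The 3 differences from WT at the same time point were 1.25 to 1.66, and the 3 from HDC-KO 0.83 to 1.21.

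Mzb1 did not follow these genes. WT bone marrow was at -0.64, -2.93, -0.75 and -0.57, HDC-KO at 0.36, -1.15, -0.23 and 0.17, and STAT6-KO at -1.19 in the control and 0.08 at MI 4 weeks, with MI 2 weeks between them. STAT6-KO was below HDC-KO at all 3 shared time points and below WT at 2 of 3. Sdc1 was dim throughout bone marrow, with WT at -6.44 to -4.38, HDC-KO at -6.05 to -4.03 and STAT6-KO at -5.00 to -4.24. The Sdc1 spot of WT bone marrow at MI 1 week was not well above background, the only such value among the 6 genes. Xbp1 ran from 3.80 to 4.14 in WT, from 4.04 to 4.52 in HDC-KO and from 3.47 to 4.49 in STAT6-KO bone marrow, with the groups overlapping.

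**Figure D1:**
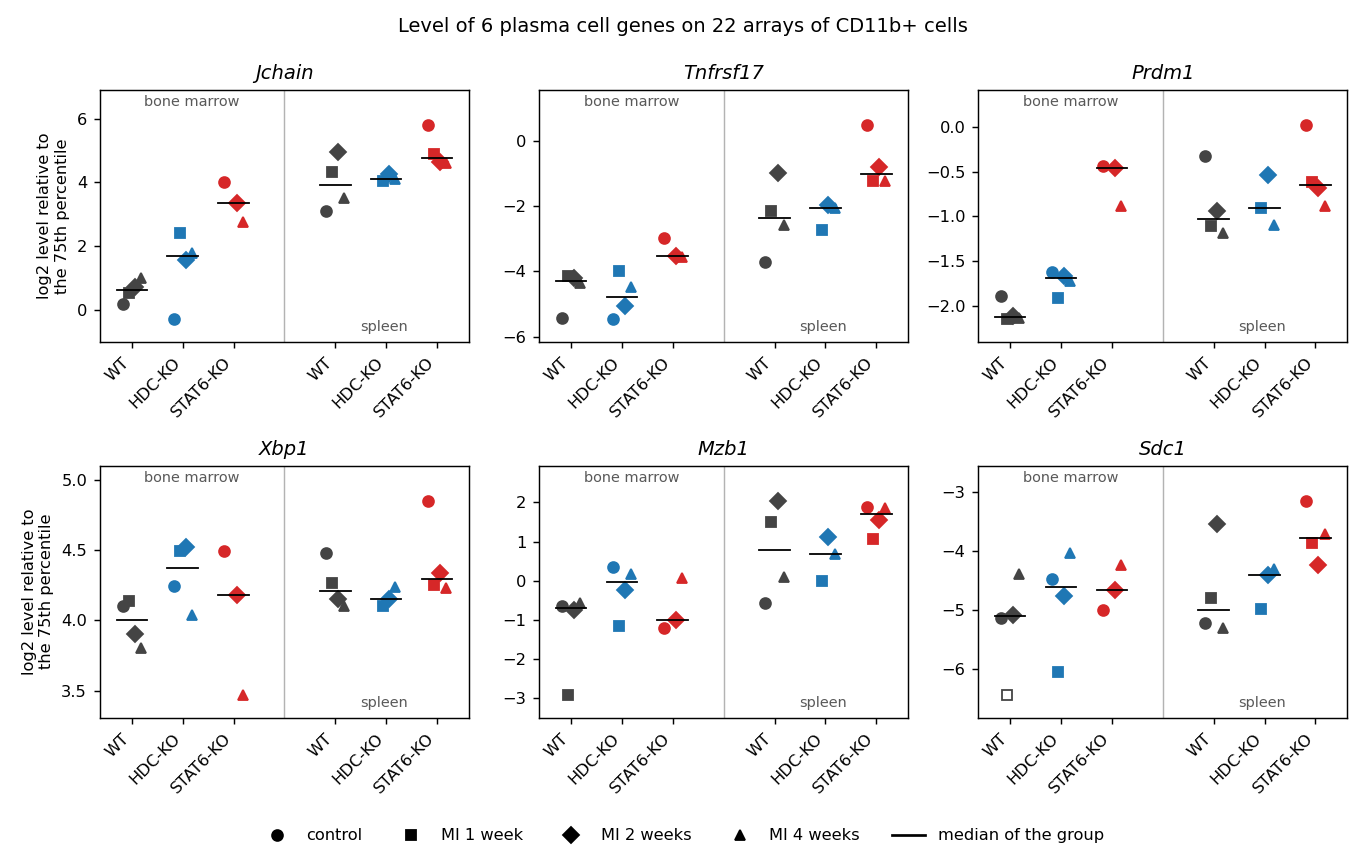
Level of each gene (y axis, log2 signal relative to the array's 75th percentile) on the 22 arrays, by tissue and genotype, with 1 point per array, the marker giving the time point and the line the median of the group; the open square is the Sdc1 value that was not well above background. In bone marrow the 3 STAT6-KO points of Jchain, Tnfrsf17 and Prdm1 lie above all WT and HDC-KO points, and those of Xbp1, Mzb1 and Sdc1 do not.

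Other genes of the plasma cell programme were counted in the same bone marrow contrast, with limma and adjustment over all 27090 genes tested, of which 6.7% passed. Of 7 further plasma cell factors, 2 fell and none rose: Irf4, which induces Prdm1, by 1.31 (adjusted p = 0.04395), and Eaf2, an elongation factor partner, by 0.92 (adjusted p = 0.01737). Both calls were lost against WT alone, where 0 of 7 passed in limma and 3 of 7 had an unadjusted p under 0.05, and were made against HDC-KO alone (-1.62 and -1.40). On STAT6-KO arrays Irf4, at -3.74 to -1.48, lay within the range of the other genotypes, -4.67 to -0.52. Eaf2, at 2.34 to 2.90 there, overlapped WT, at 2.83 to 3.49. Of 6 B cell genes that Blimp-1 represses, Pax5, the factor that maintains B cell identity, fell by 1.26 (adjusted p = 0.008038), and the list's median was -1.16 against 0.08 over all genes. That median was -0.64 against WT alone and -1.55 against HDC-KO alone, and Pax5 passed in both (-1.04 and -1.48). Its levels on STAT6-KO arrays, -3.43 to -1.80, lay within those of the other genotypes, -4.00 to -0.64. Of 8 receptors and surface proteins, 1 rose, Il5ra, a subunit of the interleukin-5 receptor, by 1.22 (adjusted p = 0.008697). Which cells of the samples carried Il5ra was not tested. None of the 4 measured survival ligands and niche factors passed in limma, with 1 of 4 under an unadjusted p of 0.05. Of 26 genes of ER folding and secretion, 1 rose, Derl3, a component of ER-associated degradation, by 0.94 (adjusted p = 0.01002), and 13 of 26 lay above 0. The broad secretory list thus had a median of 0.01, close to the 0.08 of all genes.

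Derl3 did not overlap in bone marrow: STAT6-KO ran from -2.69 to -2.56, WT from -4.02 to -3.70 and HDC-KO from -3.40 to -3.11. Markers of the B lineage were counted in the same contrast. Of 9 B cell genes 1 rose, Cd22, by 0.52 (adjusted p = 0.04872), but 8 lay below 0, and the median was -0.51. All 8 genes of B cell precursors lay below 0, with a median of -1.26, and none passed in limma, with 5 of 8 under an unadjusted p of 0.05. The medians of both lists were nearer to 0 against WT alone, at -0.26 and -0.47, than against HDC-KO alone, at -0.85 and -1.90. Of the B cell genes 3 of 9 lay above 0 against WT and 1 of 9 against HDC-KO. In limma neither the B cell genes (1 of 9 and 6 of 9 under an unadjusted p of 0.05) nor, against WT, the precursor genes (0 of 8) held a call, and 1 precursor gene passed against HDC-KO. The summed level of the 9 B cell genes had a median of 3.43 on STAT6-KO, 4.01 on WT and 4.53 on HDC-KO bone marrow arrays (log2). Its range on STAT6-KO arrays, up to 4.36, lay within that of the other genotypes, 2.26 to 4.92. In the other marker lists, Cd4 rose by 1.02 (adjusted p = 0.004287) among 9 T cell genes, and among 8 genes of plasmacytoid dendritic cells Pacsin1 rose by 1.56 (adjusted p = 0.004856) and Tcf4 fell by 0.53 (adjusted p = 0.03811). None of 8 erythroid or 17 myeloid genes passed in limma, with 0 of 8 and 8 of 17 under an unadjusted p of 0.05. The summed level of the plasmacytoid list was 5.98 to 6.35 on STAT6-KO, 5.70 to 6.39 on WT and 5.44 to 5.56 on HDC-KO arrays. The part of these cells in the 3 higher genes was not tested.

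The 6 genes were also set beside the B cell genes of the same array. Over the 11 bone marrow arrays, those of the contrast that chose the genes, Pearson's r with the summed level of the 9 B cell genes was 0.95 for Mzb1 and 0.85 for Sdc1. It was -0.56 for Tnfrsf17, -0.33 for Jchain, -0.34 for Xbp1 and -0.07 for Prdm1. In spleen the same r was 0.61 for Mzb1 and for Sdc1, 0.54 for Tnfrsf17, 0.41 for Jchain, 0.01 for Prdm1 and -0.05 for Xbp1, so that there Tnfrsf17 and Jchain lay nearer to Mzb1 and Sdc1. Jchain and Tnfrsf17 went together in bone marrow (r = 0.85), as did Jchain and Prdm1 (r = 0.81) and Mzb1 and Sdc1 (r = 0.86), while r between Jchain and Mzb1 was -0.06 and r of Xbp1 with Mzb1 and Sdc1 was -0.24 and -0.42. In the 11 spleen arrays Jchain, Tnfrsf17, Mzb1 and Sdc1 all went together, with r between 0.84 and 0.96 for each pair, and Prdm1 went with Xbp1 (r = 0.82). Arrays of the same genotype and tissue share a scan date, and these values are descriptions.

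**Figure D2:**
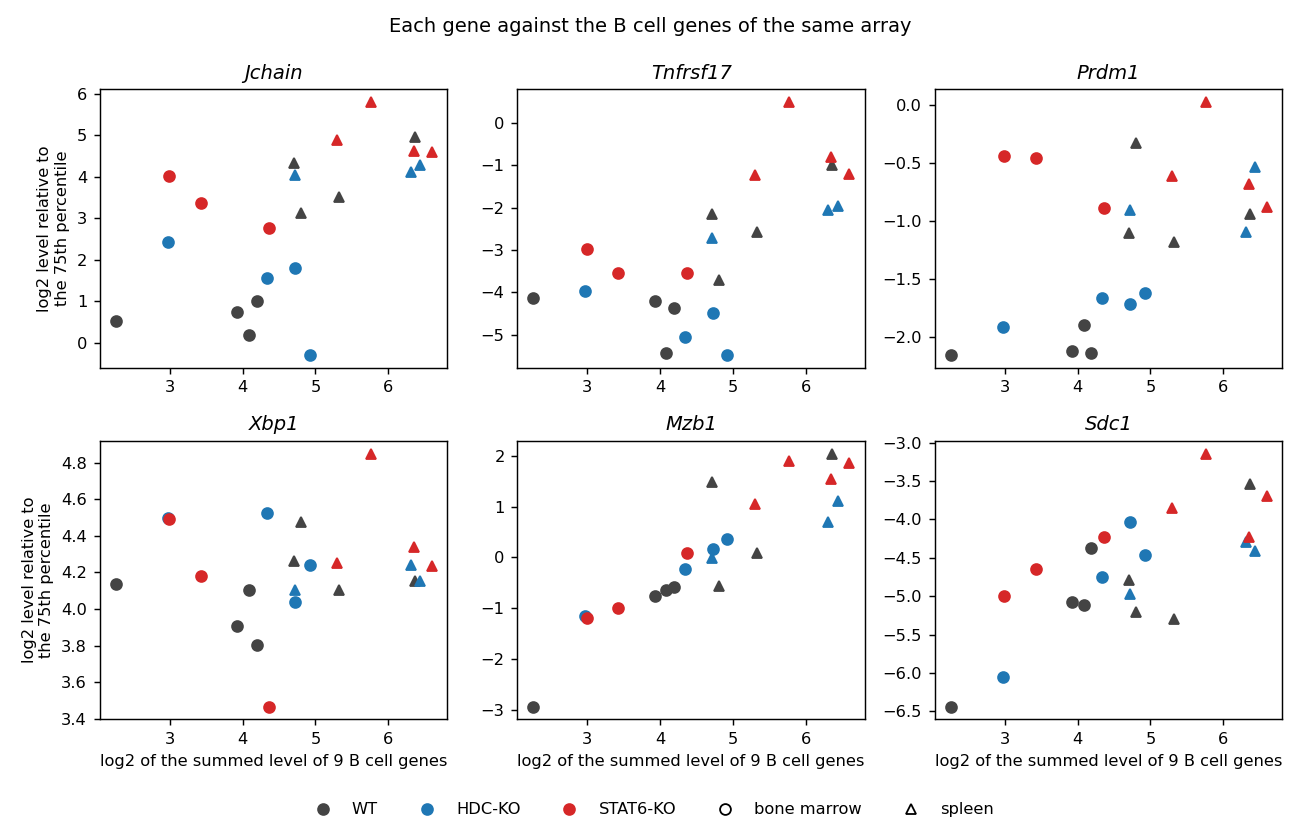
Level of each gene (y axis, log2 signal relative to the array's 75th percentile) against the log2 of the summed level of 9 B cell genes on the same array (x axis), for 11 bone marrow arrays (circles) and 11 spleen arrays (triangles), coloured by genotype. In bone marrow Mzb1 follows the B cell genes (r = 0.95), whereas for Jchain, Tnfrsf17 and Prdm1 the 3 STAT6-KO circles lie above the others.

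Spleen gave a comparison outside the contrast that chose the genes. The 6 genes were nevertheless chosen with earlier results of these data known, so spleen is not an independent test of them. STAT6-KO spleen was above WT spleen for all 6 genes in the fit, by 1.66 ± 0.57 (standard error) for Tnfrsf17, 1.00 ± 0.42 for Jchain, 0.97 ± 0.41 for Sdc1, 0.82 ± 0.50 for Mzb1, 0.35 ± 0.13 for Prdm1 and 0.17 ± 0.12 for Xbp1. None of the 6 passed limma's adjusted p of 0.05, where 1.95% of the 26472 genes tested did, and 4 of 6 had an unadjusted p under 0.05. The lowest adjusted p was that of Tnfrsf17, at 0.1415, and the others were 0.1554 to 0.4487. The median of the 6 was 0.90, against -0.06 over all genes.

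Tnfrsf17 shows where the spread lay. WT spleen was at -3.70 in the control, -2.15 at MI 1 week, -0.99 at MI 2 weeks and -2.58 at MI 4 weeks. STAT6-KO spleen was at 0.49, -1.23, -0.81 and -1.22. The STAT6-KO control was the highest of the 11 spleen arrays and the WT control the lowest, and the 4 differences were 4.19, 0.92, 0.18 and 1.36. Jchain showed the same 2 extremes, with WT at 3.11, 4.33, 4.96 and 3.52 and STAT6-KO at 5.80, 4.88, 4.63 and 4.60, so that STAT6-KO was higher at 3 of 4 time points. Without the control arrays the median of the 6 genes was 0.39.

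Prdm1 was higher in STAT6-KO than in WT spleen at 4 of 4 time points, but by 0.26 to 0.49 only. The share of all genes higher at 4 of 4 time points was not counted. WT spleen was at -0.33, -1.11, -0.94 and -1.18 and STAT6-KO spleen at 0.02, -0.61, -0.68 and -0.88. No gene of the 6 was free of overlap with the other genotypes in spleen, where 0.671% of all genes were higher without overlap. HDC-KO spleen, with 3 arrays, lay within the WT range for Jchain (4.03, 4.28 and 4.11) and Tnfrsf17 (-2.72, -1.98 and -2.05). It lay below every STAT6-KO spleen array, the lowest of which were 4.60 for Jchain and -1.23 for Tnfrsf17. The summed B cell level was 5.30 to 6.59 in STAT6-KO and 4.71 to 6.36 in WT spleen, with 1 of 9 B cell genes past the test (Cr2, a complement receptor, by 1.1, adjusted p = 0.04312) and 8 of 9 above 0. The myeloid list lay on the other side, with 3 of 17 genes above 0, a median of -0.58, 7 of 17 under an unadjusted p of 0.05 and 1 call, Ngp, a granule protein of neutrophils, which fell by 1.25 (adjusted p = 0.0288). The part of B cells and myeloid cells in these differences was not tested.

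**Figure D3:**
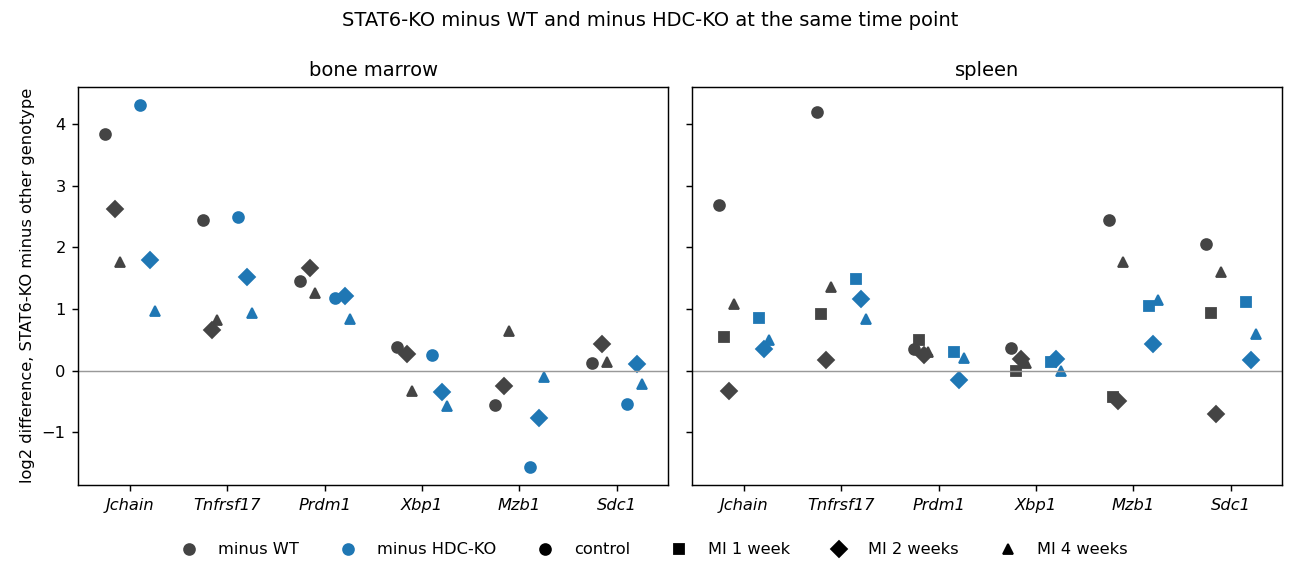
Difference in log2 level between STAT6-KO and WT (dark) or HDC-KO (blue) at the same time point, in bone marrow (left, 3 time points) and spleen (right, 4 against WT and 3 against HDC-KO), with 1 point per pair of arrays and a line at 0. All points of Jchain, Tnfrsf17 and Prdm1 lie above 0 in bone marrow, and in spleen the largest differences of Jchain and Tnfrsf17 from WT are those of the controls (2.68 and 4.19).

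HDC-KO gave no call among the 6 genes in either tissue. The WT and HDC-KO bone marrow arrays were the comparison side of the contrast that chose the genes. Their p-values for the 6 genes are therefore not independent of that choice. In bone marrow Mzb1 was above WT at 4 of 4 time points, by 1.01 ± 0.29 (limma, adjusted p = 0.1465), Sdc1 by 0.43 ± 0.13, Prdm1 by 0.35 ± 0.12 and Xbp1 by 0.34 ± 0.17, also at 4 of 4 each. The share of all genes above WT at 4 of 4 time points was not counted, so nothing is read from this count. Of the 6, 3 had an unadjusted p under 0.05 in limma, and 0.443% of all genes passed the adjusted threshold. The B lineage lists lay on the same side, with 8 of 9 B cell genes (median 0.78) and 8 of 8 precursor genes (median 1.20) above 0, and none of them passed in limma, with 6 of 9 and 5 of 8 under an unadjusted p of 0.05. In spleen the 6 differences from WT were -0.33 to 0.23, with 0 of 6 under an unadjusted p of 0.05 and 2.8% of all genes past the adjusted threshold. The standard errors there were 0.64 for Tnfrsf17, 0.56 for Mzb1, 0.46 for Jchain and Sdc1 and 0.14 for Prdm1 and Xbp1. At the errors of Tnfrsf17, Mzb1, Jchain and Sdc1 a 2-fold difference could not be told from none.

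MI changed few of these genes in a way that passed a test. In spleen Prdm1 was lower on every MI array than on its control, in 6 of 6 pairs, by 0.62 to 0.90. The 3 pairs of a genotype share 1 control array, so the 6 are not independent. The share of all genes lower in 6 of 6 pairs was not counted. Prdm1 fell by 0.74 at MI 1 week (limma, adjusted p = 0.03817), where 7.9% of all genes passed. It was the only one of the 6 to pass. Adjusted p-values for this difference ranged from 0.02896 to 0.5969 over other settings, and the call was lost under 8 of the 13, among them when any 1 genotype was left out (0.08178 to 0.3677). At MI 2 and 4 weeks it was lower by 0.59 (adjusted p = 0.09615) and 0.92 (adjusted p = 0.3607), where 2.25% and 0% of all genes passed. Xbp1 was also lower in 6 of 6 pairs in spleen, against the same shared controls, by 0.21 to 0.62. Its limma adjusted p was 0.1343 at MI 1 week. Over the 3 times after MI together the median of the 6 was -0.01 in spleen and -0.20 in bone marrow. The 4 other genes had no common direction in spleen: Tnfrsf17, Jchain and Mzb1 were higher after MI than in the control in WT and lower in STAT6-KO, at all 3 times. Over all genes 9.33% had their WT and STAT6-KO arrays on opposite sides of the control in this way, in either direction. HDC-KO spleen has no control here.

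The spleen values at MI 1 week stood beside a loss of T cell genes, 7 of 9 of which fell with a median of -1.57, while no B cell gene of 9 passed in limma, with 2 of 9 under an unadjusted p of 0.05. The summed level of the 9 T cell genes at MI 1 week was 3.59 in WT and 3.39 in STAT6-KO spleen, against 4.07 and 4.4 in the controls, and 3.31 in HDC-KO. The part of T cells in the fall of Prdm1, which T cells also express, was not tested.

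In bone marrow none of the 6 passed at any time after MI, and at MI 2 and 4 weeks 0% of all genes did, with 0 and 2 of the 6 under an unadjusted p of 0.05. The bone marrow arrays are those of the contrast that chose the genes, so these p-values are not independent of that choice. The widest differences were those of MI 1 week, which only WT and HDC-KO have. Mzb1 was lower by 1.69 ± 0.38 (adjusted p = 0.1085), and Sdc1 by 1.38 ± 0.18 (adjusted p = 0.05193). For Sdc1, a dim gene here, other settings gave adjusted p-values of 0.03777 to 0.6696, with 5 of 11 past the threshold, and with the normexp background correction the difference turned to 0.21. In limma 3 of 6 had an unadjusted p under 0.05 there, and 0.148% of all genes passed the adjusted threshold. Tnfrsf17 was higher in WT and HDC-KO at MI 1 week than in their controls, by 1.07 ± 0.42 in the fit (adjusted p = 0.2231). Jchain went up from -0.30 to 2.41 in HDC-KO and from 0.18 to 0.52 in WT. At every time measured after MI, 2 of the 6 (Tnfrsf17 and Jchain) lay on opposite sides of the control in WT and STAT6-KO, as did 19.4% of all genes, and 3 of the 6 (with Mzb1) in HDC-KO and STAT6-KO, as did 14.5% of all genes.

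The B cell genes stood lower on the same 2 arrays. Their summed level was 2.26 in WT and 2.97 in HDC-KO at MI 1 week against 4.08 and 4.92 in the controls, and Pax5 fell by 1.91 (adjusted p = 0.04076). None of 9 B cell or 8 precursor genes passed in limma, with 5 of 9 and 7 of 8 under an unadjusted p of 0.05 and medians of -1.27 and -2.01. The 8 erythroid genes also had a median below 0, at -1.31, with none past limma's test and 2 of 8 under an unadjusted p of 0.05, and their summed level was 2.26 in WT at MI 1 week against 5.04 in its control, and 3.83 against 4.34 in HDC-KO. The WT array of MI 1 week had 71.3% of its probes well above background, the lowest of the 11 bone marrow arrays, whose median was 78.4%. The part of these in the lower Mzb1 and Sdc1 was not tested.

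**Figure D4:**
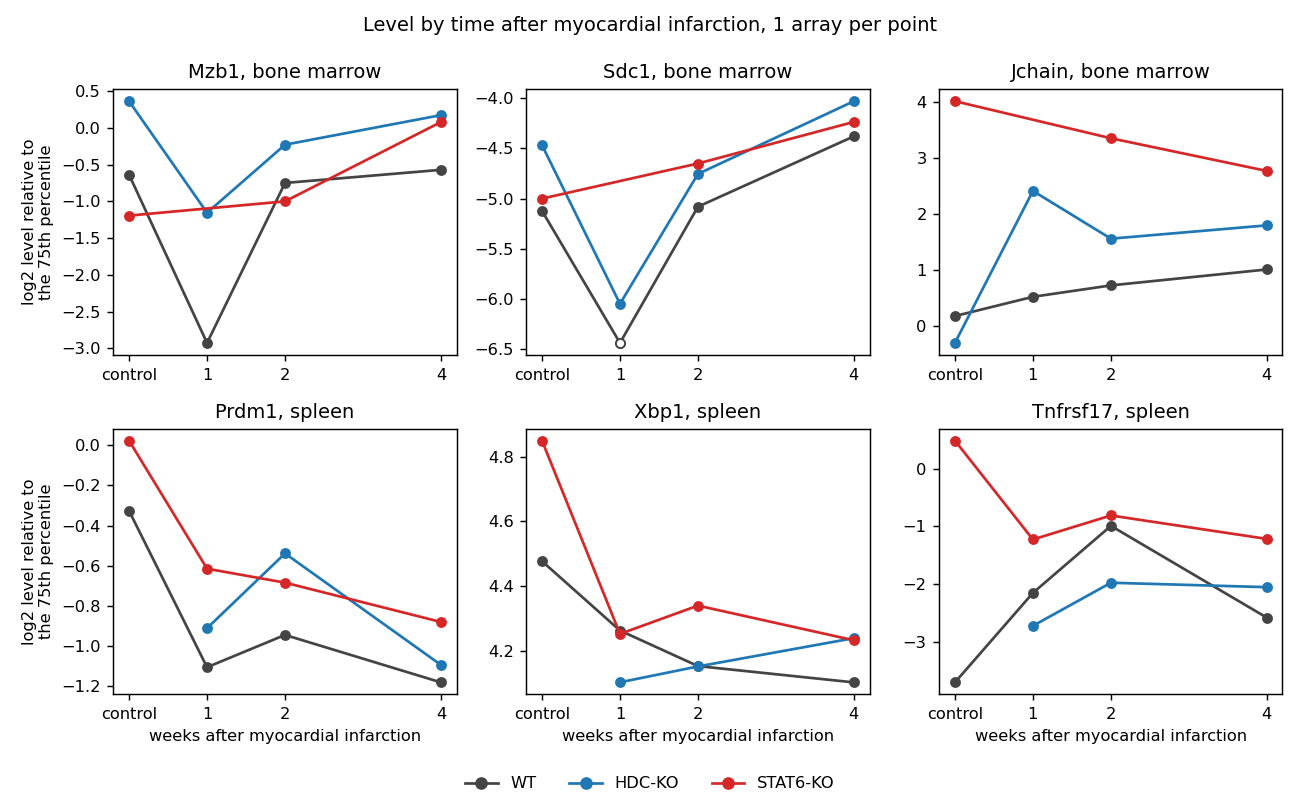
Level (y axis, log2 signal relative to the array's 75th percentile) by weeks after MI (x axis) for 3 genes in bone marrow (top) and 3 in spleen (bottom), with 1 array per point and a line per genotype; the open point is not well above background, and the lines join the arrays at hand, since STAT6-KO bone marrow has no MI 1 week value and HDC-KO spleen no control. Mzb1 and Sdc1 are lowest at MI 1 week in WT and HDC-KO bone marrow, and Prdm1 and Xbp1 are highest in the control arrays of spleen.

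Spleen was above bone marrow for these genes in most of the 10 conditions measured in both, which is given as a description. Each scan date held a single tissue, so tissue cannot be told apart from scan date. The mean difference was 2.50 for Jchain (5.66-fold), 2.40 for Tnfrsf17 (5.27-fold) and 1.84 for Mzb1 (3.57-fold), each higher in spleen in 10 of 10 pairs. It was 0.77 for Prdm1 (9 of 10 pairs), 0.62 for Sdc1 (7 of 10) and 0.18 for Xbp1 (8 of 10). The exception for Prdm1 was STAT6-KO at MI 2 weeks, where spleen was at -0.68 and bone marrow at -0.46. With 54.5% of all genes different between the tissues and 7 of 9 B cell genes higher in spleen, this contrast sets few genes apart. For Jchain the order of the groups by median was WT bone marrow (0.63), HDC-KO bone marrow (1.68), STAT6-KO bone marrow (3.35), WT spleen (3.92), HDC-KO spleen (4.11) and STAT6-KO spleen (4.75). The ranges of neighbouring groups in this order overlapped except those of HDC-KO and STAT6-KO bone marrow and those of HDC-KO and STAT6-KO spleen.

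The genes whose pattern was most like the mean of the 6, each centred on its own mean over the 22 arrays, were searched among the named genes well above background on at least 11 arrays. Derl3 came first, with Pearson's r = 0.96 over 22 arrays, 0.92 within spleen and 0.88 within bone marrow. Oosp1 followed at 0.94, nonagouti at 0.93, Hid1 at 0.93, and Sspn, Adgrb2, Zfp612, Cacna1s, Sec24d and Hepacam2 at 0.89 to 0.90. Sec24d codes for a coat protein of vesicles that leave the ER. All but Derl3 and Hid1 had r of 0.80 or less within bone marrow. Within the 6, r of each gene with the mean of the others over 22 arrays was 0.89 for Tnfrsf17 and Jchain, 0.76 for Prdm1 and Mzb1, 0.66 for Sdc1 and 0.32 for Xbp1. Within bone marrow it was highest for Prdm1 (0.80) and Jchain (0.66) and was -0.11 for Xbp1.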

How the data were processed

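Gene expression was measured in CD11b+ cells on one-colour Agilent 4x44K mouse arrays (Cy3). The deposited files hold the scanner intensity of each spot (gProcessedSignal), which the authors obtained with Agilent Feature Extraction 11.0.1.1, and the submitters' processing notes name GCRMA, whose output was not used here. Of 24 arrays, 22 were complete, with 43020 spots of 39429 probes that are not controls. Spots of a probe were averaged after leaving out 3055 outlier flags over the arrays, and none was saturated. Log2 intensity was centred on the array's 75th percentile, which was 928 to 2461 in signal. Between 70.4% and 79.8% of probes were well above background, and the number of arrays limits the precision. Symbols came from the RefSeq accession of a probe, and a gene took its brightest probe. Probes of immunoglobulin genes carried no symbol here. Genes well above background on at least 2 arrays entered limma 3.58.1 (R 4.3.3), with time and genotype in each tissue, or tissue with genotype and time as a block, and Benjamini-Hochberg adjustment. The procedure was tested on simulated data. Alternatives were other background corrections, scalings, filters and fits, and leaving out each time point. The 6 genes and all gene lists were chosen with earlier results of these data known. Named were the 6 genes, up to 6 genes of each list past an adjusted p of 0.05, the 10 genes most alike in pattern, Stat6, Hdc and 6 defining markers. Figures were drawn with matplotlib 3.10.9.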

Additional observations from a re-analysis of the deposited data

Results flagged for a closer look

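In spleen the difference of MI from the control ran in opposite directions in WT and STAT6-KO for 3 of the 6 genes, at every time point. The mean difference over 3 times was 1.79 in WT and -1.57 in STAT6-KO for Tnfrsf17, the plasma cell survival receptor, 1.15 and -1.09 for Jchain, and 1.76 and -0.41 for Mzb1, whose smallest difference in STAT6-KO was -0.04, at MI 4 weeks. Over all genes 9.33% showed this in one direction or the other. In bone marrow Tnfrsf17 was higher at all 3 times after MI in WT (mean 1.20) and HDC-KO (mean 0.96) and lower at both times in STAT6-KO (mean -0.55). Jchain was likewise higher in WT (mean 0.57) and HDC-KO (mean 2.22) and lower in STAT6-KO (mean -0.95). Mzb1 went the other way round there, lower at all 3 times in HDC-KO (mean -0.77) and higher at both in STAT6-KO (mean 0.73), while WT took both signs. In bone marrow 19.4% of all genes had WT and STAT6-KO on opposite sides and 14.5% had HDC-KO and STAT6-KO, with 2 of 6 and 3 of 6 among these genes. What singles these out is that all arrays of one genotype lay on one side of their control and all of the other on the opposite side. The differences of a genotype share 1 control array, and the difference between genotypes was not tested.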

How the results depend on the processing

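The direction of Jchain, Tnfrsf17 and Prdm1 in STAT6-KO bone marrow was the same under all 11 alternatives, at 1.78 to 3.14, 0.83 to 1.78 and 1.11 to 1.38, and that of Mzb1 was below 0 in all 11, while Sdc1 and Xbp1 took both signs. The median of the 6 there was 0.38 with normexp background correction and 1.26 when genes had to be well above background on every array, which leaves out Sdc1. In spleen, STAT6-KO against WT kept a median above 0 when a time point was left out, at 0.39 (without the controls) to 1.35 (without MI 2 weeks), and 0 of 6 genes passed under any of the 14 alternatives. The number of all genes called in that comparison was 517 and went to 4 with normexp, 144 with the 2 genotypes alone, 23 with the methods' t-test after Benjamini-Hochberg adjustment, 30 to 964 without 1 time point, and 77 without the STAT6-KO MI 2 weeks array, an alternative chosen after seeing the data because Stat6 there lies within the WT range. For HDC-KO against WT in spleen 742 genes became 6 with normexp, 428 with quantile normalization, 362 with a floor, 301 with the stricter filter, 2604 with the 2 genotypes alone, 64 with the t-test and 0 to 1289 without 1 time point. In bone marrow the 120 genes became 56, 20 and 28 with normexp, the 2 genotypes alone and the t-test, and 3 to 393 without 1 time point. At the methods' own threshold, fold and unadjusted p, that t-test gave 791, 834 and 998 genes in these 3 comparisons, none of the 6 among them. Signs turned for Sdc1 in HDC-KO bone marrow with normexp (-0.081), and for Mzb1 in HDC-KO spleen without 1 time point (-0.73 to 0.14). For MI in bone marrow the median of the 6 was 0.052 with normexp and -0.27 to 0.22 without 1 time point, the highest without MI 1 week. The MI 1 week alternatives were added after seeing the data. In spleen the 2092 genes called became 0 with normexp, 1280 with quantile normalization and 0 (without WT) to 3345 (without STAT6-KO) when 1 time point or genotype was left out. In bone marrow the 40 became 0 with normexp, 63 with quantile normalization, 61 with a floor, 13 with no filter, 97 with the stricter filter and 0 to 457 (without STAT6-KO) with arrays left out, and Sdc1 turned to 0.21 with normexp. Spleen against bone marrow gave a median of 1.84 with the stricter filter, 1.16 to 1.59 without 1 time point and 1.30 with no replicate block, the value of the paired fit, where the pairing is by genotype and time and not by animal. The causes were not tested. Sdc1 was the only one of the 6 with a value not well above background, on 1 of 22 arrays.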
